A study of Ovis aries with 8 samples.

Results

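HSP70.1, HSP90AA1 and DDIT3, 3 of 715 genes named on an ovine array, were followed through 5 of its 15008 probes in carotid arteries of fetal sheep (Ovis aries). The members were all the non-control probes that carry one of these names. There were 2 probes for HSP70.1, a heat shock protein given under the array's own name, 1 probe for HSP90AA1 and 2 probes for DDIT3. The genes were chosen by their measured differences between hypoxia and normoxia on these arrays, so those differences are described here without a test. RNA came from 8 fetuses at gestation day 140, with 1 array for each fetus. In the hypoxia group, 4 fetuses were from ewes held at an altitude of 3801 m between gestation days 30 and 135, an exposure that the sample titles give as 110 days. In the normoxia group, 4 fetuses were from ewes kept at 300 m, and ewes of both groups ate alfalfa pellets under natural light. The labels tell fetuses of a group apart by a number only, so the spread between arrays may be in part technical.

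Cells answer unfolded protein in separate compartments with separate programmes. In the cytosol and nucleus, the transcription factor HSF1 induces heat shock genes, among them HSP70 chaperones, which bind exposed hydrophobic stretches of unfolded chains, and HSP90AA1, the inducible cytosolic HSP90, which matures client proteins such as kinases and steroid receptors. In the endoplasmic reticulum, stress sensors of the unfolded protein response induce the lumenal chaperone HSPA5 and folding enzymes. When that stress lasts, the kinase EIF2AK3 acts through ATF4 to induce DDIT3, also called CHOP or GADD153, a transcription factor linked to cell death. The 3 genes therefore stand for different arms of proteostasis, cytosolic chaperones on one side and endoplasmic reticulum stress on the other.

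The arrays differed in brightness. The 75th percentile of the scanner's background-subtracted signal was 97.9 to 1241 on the hypoxia arrays and 125 to 1387 on the normoxia arrays. Replicate 1 was the dimmest array in both groups. The percent of probes well above background was 62.9 to 94.8 in hypoxia and 59.7 to 88.4 in normoxia. Levels below are log2 signals relative to each array's 75th percentile, so 0 is that percentile. After Benjamini-Hochberg adjustment of limma's p-values at a threshold of 0.05, 0 of 10891 features (0%), each a named gene or an unnamed probe, passed. At an unadjusted p under 0.05 there were 396 (3.64%). Smooth muscle genes, which mark the labelled tissue, were bright, with CNN1 at 7.28 ± 1.58 in hypoxia and 7.90 ± 0.69 in normoxia (SD, n = 4 each).

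HSP70.1 was brighter in the hypoxia arteries than in the normoxia arteries with both probes. Its brighter probe, A_70_P031192, had levels of 0.40, 0.18, 1.57 and -0.05 in hypoxia 1 to 4, against -0.52, -0.64, -0.11 and -1.05 in normoxia 1 to 4. All hypoxia values lay above all normoxia values, and hypoxia 3 stood highest. The means were 0.53 ± 0.72 in hypoxia and -0.58 ± 0.39 in normoxia (SD, n = 4 each), a log2 difference of 1.11 (SE 0.43) or 2.15-fold. The groups were parted the same way in 1.69% of all features tested (184 of 10891). In whole arteries, more cells of a type and more RNA per cell cannot be told apart.

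The separation of HSP70.1 was narrow. The gap between hypoxia 4 and normoxia 3 was 0.06 on the log2 scale, while the scanner software put the error of single HSP70.1 spots at no more than 11.01% of their signal. With median scaling of the arrays the groups overlapped by 0.27, and with quantile normalization, cyclic loess, normexp background correction and the authors' own values they did not. The second probe, A_70_P031191, had 0.24, -0.11, 1.28 and -0.34 in hypoxia and -0.61, -1.06, -0.23 and -0.996 in normoxia. Here hypoxia 4 lay below normoxia 3, so the groups overlapped, and the log2 difference was 0.99 (SE 0.43).

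The labels do not say that arrays sharing a replicate number belong together, so counts of pairs are descriptions only. Paired by that number, HSP70.1 was higher in hypoxia in 4 of 4 pairs with either probe, as 13.7% of all features were. With normexp background correction, which starts from the raw spot and its local background, the second probe was higher in 3 of 4 pairs. The pair differences of the brighter probe were 0.92, 0.82, 1.68 and 1.00. Its unscaled signals were 129, 393, 3689 and 849 in hypoxia and 87.8, 389, 1288 and 192 in normoxia. All 8 arrays showed both probes well above background, and none was saturated. In rank on its array, which does not depend on scaling, the brighter probe stood at percentiles 74.5 to 89.3 of all probes in hypoxia and 66.1 to 73.9 in normoxia. Without hypoxia 3, the log2 difference was 0.76, still with no overlap, since hypoxia 3 was the highest array.

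The 2 probes of HSP70.1 followed each other closely. Their level differed by 0.06 to 0.42 on single arrays, and their Pearson r over the 8 arrays, which share brightness and slide, was 0.98. The array's annotation ties both to one expressed sequence tag. No probe carried the name HSPA1A, HSPA1L, HSPA6 or HSPA8, genes of the HSP70 family in the RefSeq sheep gene list. Whether the array's name HSP70.1 stands for one of these genes was not resolved here. Probe sequences were not used here, so which HSP70 transcripts these probes bind was not tested.

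**Figure D1:**
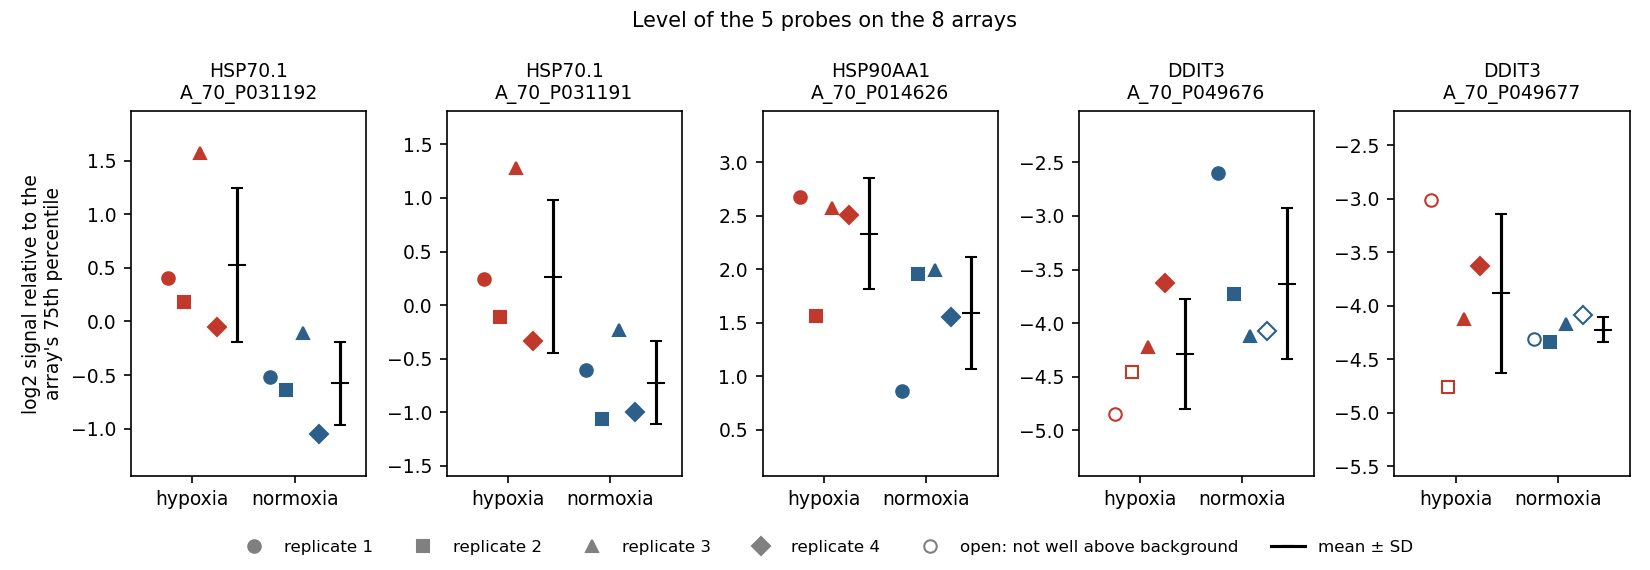
Level of each of the 5 probes as log2 signal relative to the array's 75th percentile (vertical axes, each spanning the same number of log2 units), for hypoxia (left, red) and normoxia (right, blue). Points are arrays, shaped by replicate number and open where the probe was not well above background, and bars are mean ± SD over 4 arrays. For A_70_P031192 the hypoxia points lie above the normoxia points by 0.06, whereas the 2 DDIT3 probes give opposite orders for replicate 1.

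HSP90AA1 had a higher mean in the hypoxia arteries and was higher in 3 of 4 pairs, with overlapping groups. Its probe, A_70_P014626, was designed on a partial coding sequence under the older name HSPCA. Levels were 2.68, 1.56, 2.58 and 2.50 in hypoxia 1 to 4, against 0.87, 1.96, 1.99 and 1.55 in normoxia 1 to 4. Hypoxia 1, 3 and 4 lay above every normoxia array, but hypoxia 2 lay among them. The means were 2.33 ± 0.52 in hypoxia and 1.59 ± 0.52 in normoxia (SD, n = 4 each), a log2 difference of 0.74 (SE 0.40) or 1.67-fold.

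The size of the HSP90AA1 difference rested on few arrays. The pair differences were 1.81, -0.40, 0.59 and 0.95, so pair 1 was the widest and pair 2 ran the other way. In pair 1 the unscaled signals were 626 on hypoxia 1 and 229 on normoxia 1, the lowest array, where the spot was 3.72 times its local background. Without normoxia 1 the log2 difference was 0.50, and without replicate 1 of both groups it was 0.38. With array weights, which down-weight arrays that deviate over all features, it was 0.16. Without hypoxia 2 it was 0.99. The spot was well above background on all 8 arrays and its percentile on the array was 87.4 to 94.4 in hypoxia and 83.7 to 90.5 in normoxia.

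DDIT3 was close to the background of the arrays, and its 2 probes gave opposite signs. The first probe, A_70_P049676, had levels of -4.85, -4.46, -4.22 and -3.63 in hypoxia 1 to 4, against -2.60, -3.73, -4.12 and -4.08 in normoxia 1 to 4. The hypoxia values lay among or below the normoxia values. Its mean was -4.29 ± 0.51 in hypoxia and -3.63 ± 0.71 in normoxia (SD, n = 4 each), a log2 difference of -0.66 (SE 0.45).

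The second DDIT3 probe, A_70_P049677, had -3.02, -4.76, -4.13 and -3.63 in hypoxia and -4.31, -4.34, -4.17 and -4.08 in normoxia. Hypoxia 1, the lowest array with the first probe, was the highest with this one. Its means were -3.88 ± 0.74 in hypoxia and -4.22 ± 0.12 in normoxia (SD, n = 4 each), a log2 difference of 0.34 (SE 0.40). With normexp background correction this probe too was lower in hypoxia, at -0.56, as were 8649 of 10891 features under that correction. Its sign therefore depends on how background is removed. Over the 8 arrays the Pearson r between the DDIT3 probes was -0.33, although both probes come from the same expressed sequence tag.

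The disagreement lay in replicate 1. The probes differed by 1.83 on hypoxia 1 and 1.71 on normoxia 1, with the opposite sign, and by 0.00 to 0.61 on the other 6 arrays. On hypoxia 1 the unscaled signal of the first probe was 3.40 with a scanner error of 98.3% of it, and that of the second probe was 12.1 with an error of 29.4%. On normoxia 1 the signals were 20.7 and 6.34, with errors of 19.7% and 70.6%. Across all arrays a DDIT3 spot was 1.20 to 2.44 times its local background, before subtraction, while HSP70.1 spots were 2.25 to 41.4 times theirs.

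Without replicate 1 of both groups, neither DDIT3 probe set the groups apart. The first probe was at -4.10 in hypoxia and -3.97 in normoxia, a log2 difference of -0.13, and the second was at -4.17 in hypoxia and -4.20 in normoxia, a difference of 0.02. The first probe was well above background on 2 hypoxia and 3 normoxia arrays, and the second on 2 of each. Over those arrays alone, the first probe differed by -0.44 and the second by 0.37. A dim probe of this kind limits what can be said: a difference in DDIT3 was not detectable at this signal, which does not show that its level was the same.

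**Figure D2:**
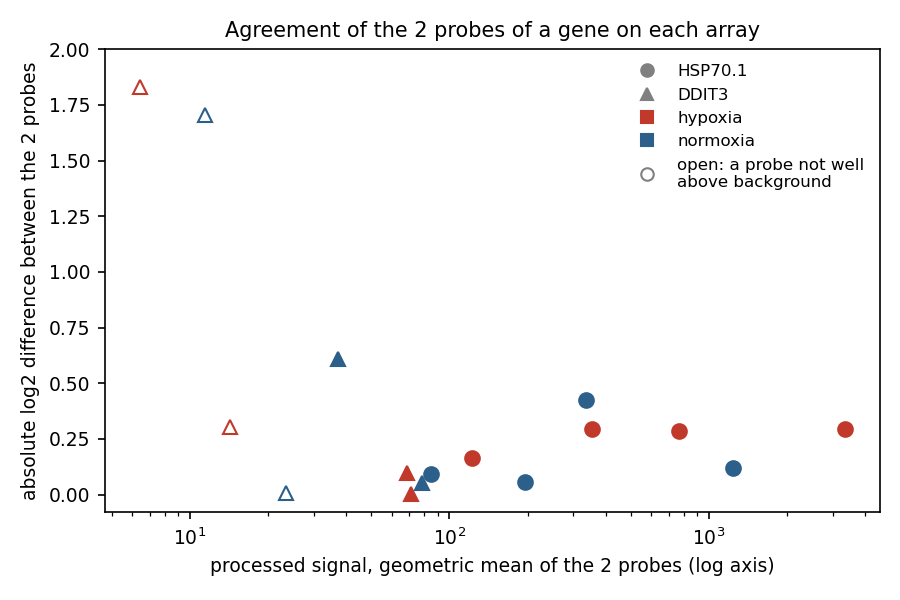
Absolute log2 difference between the 2 probes of a gene on each array (vertical axis) against their mean processed signal in scanner units (horizontal log axis), for HSP70.1 (circles) and DDIT3 (triangles) in hypoxia (red) and normoxia (blue). Open points mark arrays where at least 1 of the probes was not well above background, and the 2 widest gaps, 1.83 and 1.71, are DDIT3 on the replicate 1 arrays.

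Within an array, a ratio between genes removes the array's scaling, so HSP70.1 and HSP90AA1 were set against HSPA5. HSPA5, also called GRP78 or BiP, is the main lumenal HSP70 chaperone of the endoplasmic reticulum and a standard marker of the unfolded protein response, and had 2 probes well above background on all arrays. The log2 ratio of HSP70.1 over HSPA5 was larger in hypoxia by 0.50, with a spread of 0.86 in hypoxia and 0.77 in normoxia (SD, n = 4 each). Its direction turned within slides, at -0.14 within slide 1 and -0.73 within slide 2. That of HSP90AA1 over HSPA5 was larger by 0.14, with a spread of 1.07 in hypoxia and 0.63 in normoxia, and was 0.030 within slide 1 and -0.77 within slide 2. These ratios therefore give no steady order between the cytosolic genes and HSPA5. Ratios to DDIT3 are not given, because its spots were too close to background on several arrays.

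Few other genes of these pathways had a named probe. Of 45 other names of cytosolic heat shock genes listed, HSPA1A among them, 1 had a probe. Of 17 chaperonin and mitochondrial chaperones 2 had a probe. Of 26 folding genes of the endoplasmic reticulum 3 did, and of 26 of its stress signalling genes 3. By limma 0 of the 8 that entered the test passed, with an adjusted p of 0.998 for each and 0 at an unadjusted p under 0.05. With the replicate number as a block, 2 of the 8 had an unadjusted p under 0.05, as did 12.0% of all features, and still 0 passed. They were HSPA5, with an SE of 0.23 and an adjusted p of 0.404 in limma's blocked fit, and PDIA4, with an SE of 0.28 and an adjusted p of 0.399. The ninth, ATF6, a sensor of endoplasmic reticulum stress, was well above background on 2 hypoxia arrays and 1 normoxia array and was not tested.

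All 5 tested genes of the endoplasmic reticulum had a higher mean in hypoxia, as did 48.2% of all features. The share of all features depends on the scaling, and was 3797 of 10891 with median scaling and 2242 of 10891 with normexp, where the 5 genes were still higher. HSPA5 had levels of 1.08, 2.31, 3.13 and 2.65 in hypoxia 1 to 4, against 0.80, 1.34, 2.89 and 1.74 in normoxia 1 to 4. Each hypoxia array was above the normoxia array of its number, as in 13.7% of all features, but the groups overlapped. The log2 difference was 0.60 (SE 0.58), and 0.74 with the second probe. It was 0.31 without normoxia 1 and 1.01 without hypoxia 1.

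PDIA4, a protein disulfide isomerase of the endoplasmic reticulum, had -1.32, -0.13, 1.33 and 0.01 in hypoxia, against -1.31, -1.08, 0.65 and -1.35 in normoxia. The log2 difference was 0.74 (SE 0.66), with the groups overlapping, and was 0.29 without hypoxia 3 and 1.22 without normoxia 3. DERL1, which takes part in export of misfolded proteins for degradation, was at 0.20 (SE 0.42). XBP1, a transcription factor of the unfolded protein response, was at 0.28 (SE 0.59), where normoxia 1 alone was low at 0.74 against 2.92 to 3.57 on the other normoxia arrays, and it was at -0.33 without normoxia 1. CEBPB, a partner of DDIT3 in the same family of transcription factors, was at 0.30 (SE 0.37).

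In the cytosol, CRYAB, a small heat shock protein abundant in muscle, had a lower mean in hypoxia, as did 51.8% of all features. Its levels were 4.55, 5.04, 4.32 and 5.67 in hypoxia, against 4.62, 5.50, 5.04 and 5.97 in normoxia. It was lower in 4 of 4 pairs, as were 10.6% of all features, with overlapping groups and a log2 difference of -0.39 (SE 0.41). Blocked on slide, it was at 0.075. TCP1, a subunit of the cytosolic chaperonin, was at 0.40 (SE 0.40). GRPEL1, a cofactor of the mitochondrial HSP70, was at 0.24 (SE 0.29).

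**Figure D3:**
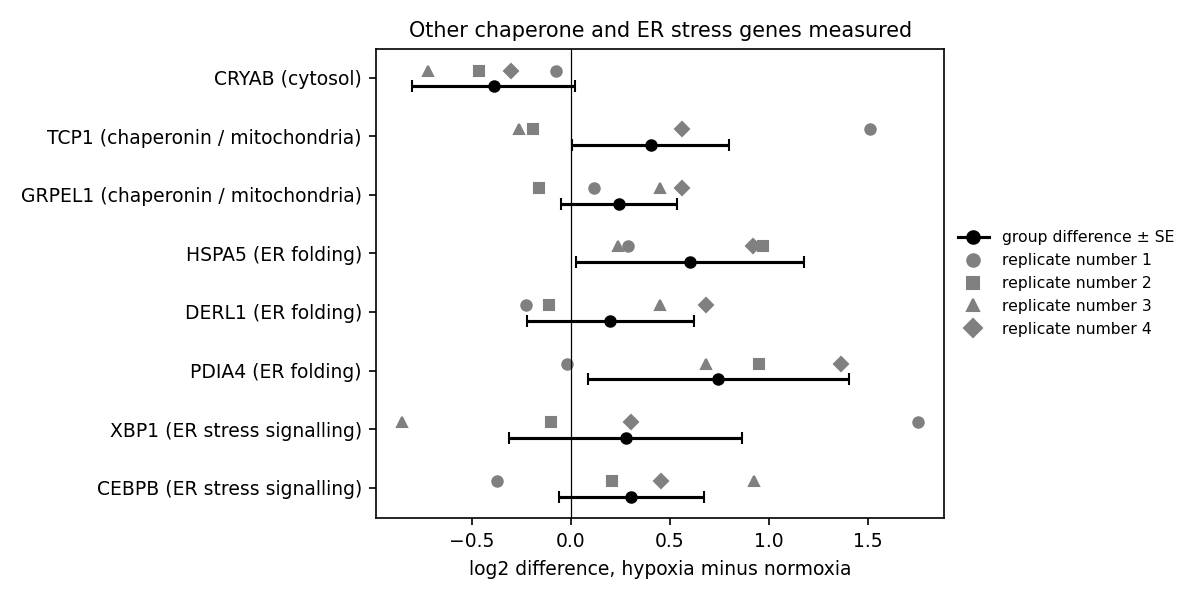
Log2 difference, hypoxia minus normoxia (horizontal axis), of the 8 other chaperone and stress genes tested. Black points are the group differences ± SE from limma and grey points, shaped by replicate number, the differences of arrays sharing a number. HSPA5 lies right of 0 in all 4 pairs, as 13.7% of all features do, and CRYAB left of it, as 10.6% do.

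The arrays were spread over 3 slides. Slide 1 held hypoxia 1 to 3 and normoxia 1, slide 2 held hypoxia 4 and normoxia 2, and slide 3 held normoxia 3 and 4, so within a slide each value rests on a single normoxia array. Within slides 1 and 2 the log2 difference of HSP70.1 was 1.23 and 0.59, and that of HSP90AA1 was 1.41 and 0.55. For the first DDIT3 probe it was -1.91 and 0.10, and for the second it was 0.34 and 0.70. HSPA5 gave 1.38 and 1.32, and PDIA4 1.27 and 1.09. A fit that blocked on slide put HSP70.1 at 0.98, HSP90AA1 at 1.06 and the first DDIT3 probe at -1.10.

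The spread within groups was ordinary for these arrays. The pooled SD was 0.58 for HSP70.1, 0.52 for HSP90AA1 and 0.62 for the first DDIT3 probe, beside a median of 0.63 over all features. Over the 8 arrays, Pearson r was 0.62 between HSP70.1 and HSP90AA1, -0.42 between HSP70.1 and the first DDIT3 probe, and -0.64 between HSP90AA1 and that probe. These are descriptions over 8 points that share slide and brightness.

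Among 562 other named genes, those whose levels followed HSP70.1 most closely over the 8 arrays were TRPC4AP (r = 0.91), CITED2 (r = 0.91), a coactivator induced by low oxygen, and COL3A1 (r = 0.89), a fibrillar collagen chain. Those closest to HSP90AA1 were TCP1 (r = 0.86), GLUD1 (r = 0.84), a mitochondrial glutamate dehydrogenase, and COL1A1 (r = 0.84). Those closest to the first DDIT3 probe were BMP4 (r = 0.85), a secreted growth factor, CAPN3 (r = 0.75), a calpain of muscle, and GABPA (r = 0.74), an ETS transcription factor. These are descriptions over the same 8 points. The group means were not removed before r was taken, so a gene picked for likeness to HSP70.1 tends to share its group difference. With that limit, the log2 differences between the groups were 0.58 (SE 0.26) for TRPC4AP, 0.97 (SE 0.40) for CITED2 and 1.80 (SE 0.81) for COL3A1. Dimmer probes of COL3A1, A_70_P016306 and A_70_P016307, gave 0.53 and 0.54.

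Markers of the cell types that an artery can hold were summed on the linear scale, and the sum is given as log2. For smooth muscle, 3 of 10 listed markers were measured, with sums of 7.65 to 9.75 in hypoxia and 8.70 to 10.2 in normoxia. For endothelium, 5 of 10 were measured, at -0.88 to 1.17 in hypoxia and -1.40 to 0.68 in normoxia. For adventitial fibroblasts, 4 of 8 were measured, at 4.65 to 7.48 in hypoxia and 4.63 to 6.19 in normoxia. The lowest smooth muscle sum, 7.65, and the highest fibroblast sum, 7.48, were both on hypoxia 1. The sums overlapped between the groups, while single markers differed in their means. Of the fibroblast markers, 3 of 4 had a higher mean in hypoxia, against 48.2% of all features, and the sum is carried by DCN, which was at -0.15 (SE 0.75). The log2 differences were 1.80 (SE 0.81) for the brightest COL3A1 probe, 0.96 (SE 0.53) for COL1A1 and 0.85 (SE 0.68) for FBLN1. Dimmer COL3A1 probes, A_70_P016306 and A_70_P016307, gave 0.53 and 0.54. With normexp these were at -0.047 and 0.019, where the brightest was at 1.24. Of the endothelial markers, 4 of 5 had a higher mean in hypoxia, against 48.2% of all features. Their sum was higher by 0.97, with hypoxia 1 to 3 above every normoxia array and hypoxia 4 among them. TIE1 was well above background on 3 hypoxia arrays and 1 normoxia array, and TEK on 2 of each. With normexp NOS3 was at 0.28 and TIE1 at 0.053, whereas KDR was at -0.32, TEK at -0.73 and FLT1 at -0.94. Within slide 2 NOS3 was at -0.22 and TIE1 at -1.60. All 3 smooth muscle markers had a lower mean in hypoxia, as did 51.8% of all features. None of these genes passed the test.

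For leukocytes, 6 of 11 listed markers were measured, with sums of 0.24 to 1.44 in hypoxia and 1.09 to 1.59 in normoxia. All 6 had a lower mean in hypoxia, as 51.8% of all features did. FCER1G was at -0.72 (SE 0.27), with every hypoxia array below every normoxia array, as in 0.973% of all features. It did not pass by limma (adjusted p 0.998), and its second probe, at -0.36, overlapped. ITGB2 was at -0.95 (SE 0.48), with overlapping groups. For red cells, 2 of 6 were measured, at -0.31 to 0.95 in hypoxia and -1.002 to 1.03 in normoxia. For skeletal muscle, 2 of 9 were measured, at -2.11 to -0.76 in hypoxia and -2.09 to -0.78 in normoxia. For fat, 4 of 7 were tested, at -2.78 to 0.66 in hypoxia and -1.25 to 0.77 in normoxia. All 4 had a lower mean in hypoxia, as 51.8% of all features did. That count depends on filter and probe. LPL was too dim to be tested, and its probes were at 0.23 and 0.18. The dimmer LEP probe was at 0.49, where the tested probe was at -0.55. The groups overlapped in each of these sums, and the part of these cell types in the chaperone values was not tested.

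Across processing choices, HSP70.1 stayed above 0, from 0.59 within slide 2 to 1.30 without hypoxia 4. HSP90AA1 also stayed above 0, from 0.16 with array weights to 1.41 within slide 1. The first DDIT3 probe ran from -1.91 within slide 1 to 0.10 within slide 2, and the second probe was at 0.34. With normexp background correction HSP70.1 was at 0.66 and HSP90AA1 at 0.48, where the median of all features was -0.31, beside -0.02 as reported and -0.20 with median scaling. The authors' deposited ratios gave 1.11 for HSP70.1, 0.75 for HSP90AA1 and -0.65 for the first DDIT3 probe, and on single arrays they were 0.979 to 1.01 times the values used here for the 5 probes.

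**Figure D4:**
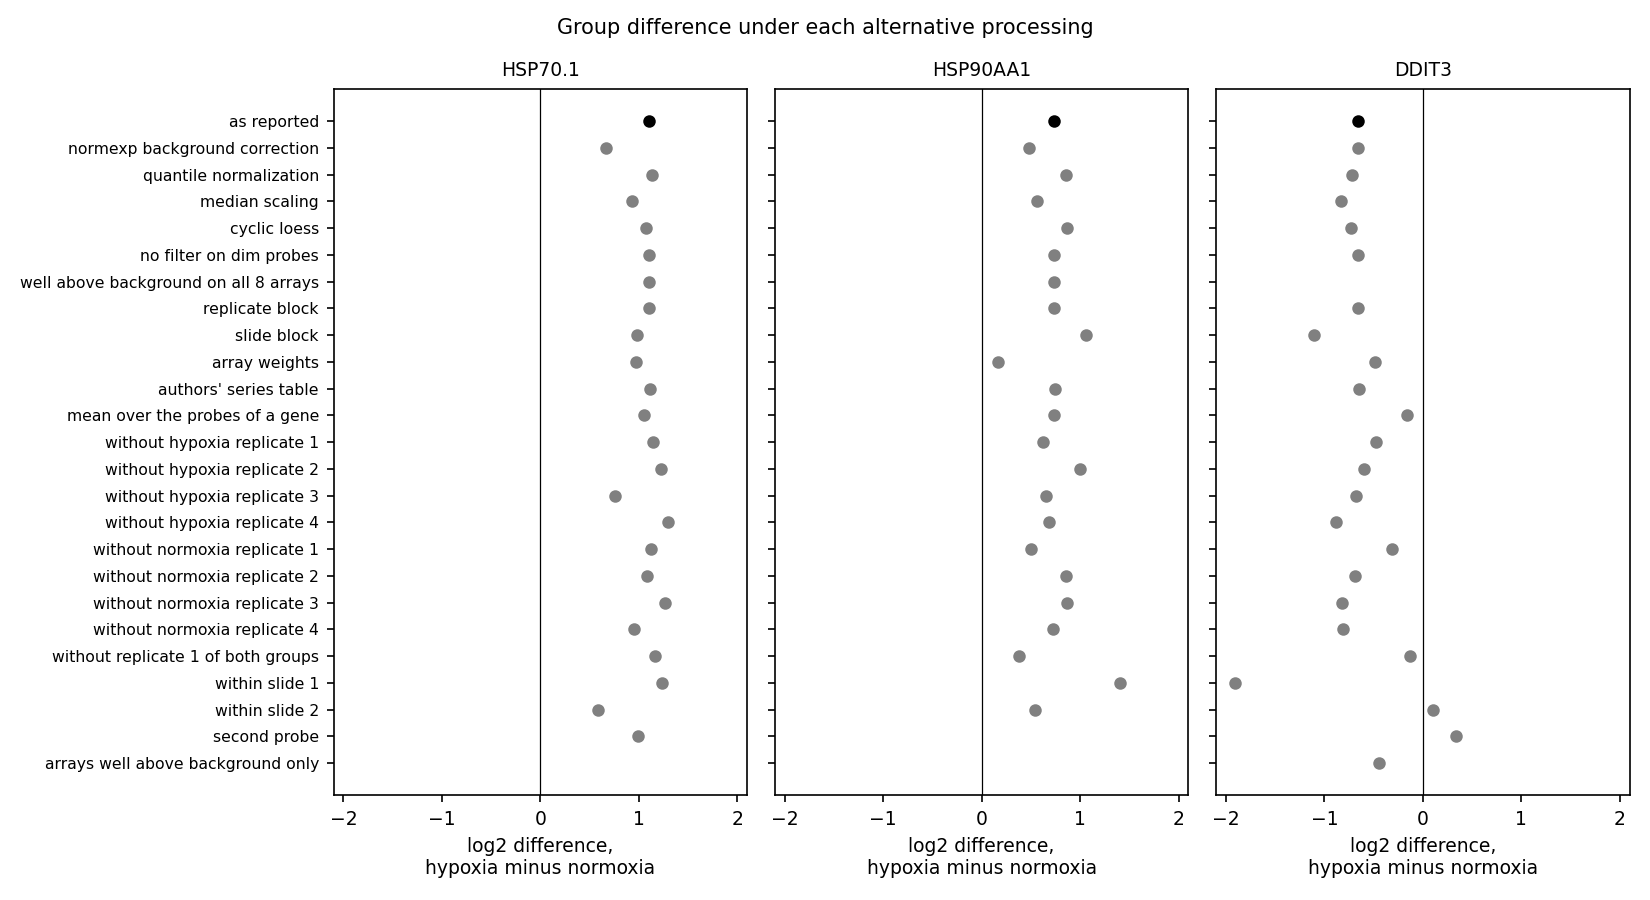
Log2 difference, hypoxia minus normoxia (horizontal axes), of HSP70.1, HSP90AA1 and DDIT3 as reported (black) and under each alternative (grey, listed down the left). HSP70.1 and HSP90AA1 stay right of 0 throughout, while DDIT3 lies at 0.10 within slide 2 and at 0.34 with its second probe.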

How the data were processed

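Total RNA of 8 carotid arteries was labelled with Cy3 and hybridised to 1-colour Agilent arrays of design 019921. The deposited intensity values were the scanner software's processed signals, which the file headers credit to Agilent Feature Extraction 9.5.3.1 (protocol GE1-v5_95_Feb07). Set against the raw spot signals beside them, they have background removed, and they differ in overall level between arrays. The authors' deposited series table holds a ratio that, from its values, is that intensity over each array's 75th percentile, with a floor of 0.01. The other deposited columns are flags.

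From these, the 536 control spots and outlier spots were left out, spots of a probe were averaged as log2, and the array's 75th percentile was subtracted. Probes well above background on at least 4 of 8 arrays were kept. The brightest probe stood for a gene, and the 13744 probes without a name (of 15008) were features of their own. Names came from the files and the RefSeq sheep gene list of ARS-UI_Ramb_v3.0. Group differences came from limma 3.58.1 in R 4.3.3 with Benjamini-Hochberg adjustment over 10891 features, tested on simulated data. The SEs of the HSP70.1, HSP90AA1 and DDIT3 probes came from a limma fit over the 14936 probes with a value on all arrays. In the fit over 10891 features they were 0.41 for HSP70.1, 0.38 for HSP90AA1 and 0.43 for the first DDIT3 probe. The genes, lists and named genes (all probes of the 3 genes, the measured list members, and for each gene the 3 named genes most like it) were chosen with earlier results of these data known.

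Arrays sharing a replicate number deviated together from their group means, with correlations of 0.82, 0.72, 0.58 and 0.43. Since each was over 0.1, arrays of equal number were compared as pairs, and the number was a block in an alternative fit. The main fit, with its SEs and p-values, was unpaired. Arrays of unequal number passed 0.1 too. Hypoxia 4 and normoxia 2, on one slide, correlated at 0.80, and hypoxia 3 and normoxia 1, also on one slide, at 0.58. Hypoxia 2 and normoxia 1, on that same slide, correlated at -0.64, so a shared slide did not go with a positive correlation throughout. Hypoxia 2 and normoxia 4 correlated at 0.27, and hypoxia 1 and normoxia 3 at 0.15. The correlations therefore do not by themselves show that equal numbers belong together. What a shared number stands for is not in the labels. The number of arrays limits precision. Alternatives were other scalings, background correction, filters, blocks, probes and leaving out arrays.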

Additional observations from a re-analysis of the deposited data

Results flagged for a closer look

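HSP90AA1 on hypoxia 2 lay apart from the other hypoxia arrays, at a log2 level of 1.56 against 2.50 to 2.68, with a gap of 0.846 of the group's range. PDIA4 on normoxia 3 lay apart from the other normoxia arrays, at 0.65 against -1.35 to -1.08, with a gap of 0.862 of the range. Of 40 groups of 4 arrays examined, 2 had such an array, and chance gives about 1 in 20. The 40 include ratios between the same probes, those to the dim DDIT3 probes among them. They are therefore not independent, and the chance rate is only a rough guide.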

How the results depend on the processing

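Under each alternative that gave a test, 0 features passed by limma, and 0 members of the cytosolic and endoplasmic reticulum lists. Within slide 2, with 1 array a group, there was no test, and within slide 1 the lone normoxia array was assumed to vary like the hypoxia arrays. The count at an unadjusted p under 0.05 was 396 as reported, 23 with normexp, 137 with median scaling, 192 blocked on slide, 184 within slide 1 and 1322 with array weights. Leaving out 1 array gave 168 to 600. With the replicate number as a block it was 1306, and the block left every log2 difference as it was and changed no adjusted call. HSP70.1 was at 0.76 to 1.30 when 1 array was left out, HSP90AA1 at 0.50 to 0.99 and DDIT3 at -0.88 to -0.31. HSP90AA1 moved to 0.16 with array weights and to 1.41 within slide 1. DDIT3 moved to -1.91 within slide 1 and changed sign to 0.10 within slide 2 and to 0.34 with its second probe, and with the mean over both probes it was at -0.16. CRYAB turned positive when blocked on slide (0.075) and within slides 1 (0.015) and 2 (0.17). With 1 array left out DERL1 ran from -0.00497 without normoxia 1 to 0.54, at -0.00399 without hypoxia 3, and XBP1 from -0.33 without normoxia 1 to 0.62. HSPA5 ran from 0.31 to 1.01, PDIA4 from 0.29 to 1.22, CEBPB from 0.066 to 0.62, TCP1 from 0.088 to 0.68 and GRPEL1 from 0.051 to 0.36. XBP1 was at -0.22 without replicate 1 of both groups. The cause of these moves was not tested. The second probe, the arrays well above background and the removal of replicate 1 of both groups were chosen after seeing the data. DDIT3 was not well above background on all 8 arrays and has no value under that filter.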
